A study of Mus musculus with 8 samples.

Results

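Lipid mediator genes were examined in primary cardiac fibroblasts of C57BL/6J mice, taken at 1 day of age and wild type in every library. The genes were the 9 members of a sphingosine and lysophosphatidic acid set, chosen by gene symbol from the 56748 genes of the count table. They encode the sphingosine kinases Sphk1 and Sphk2, the sphingosine 1-phosphate lyase Sgpl1, the sphingosine 1-phosphate receptors S1pr1, S1pr2 and S1pr3, the lysophosphatidic acid receptors Lpar1 and Lpar4, and the enzyme autotaxin (Enpp2). The treated group consisted of 4 cultures exposed to TGF-β1 (transforming growth factor beta 1, which turns fibroblasts into matrix-secreting, contractile cells) at 10 ng/mL for 48 h. The other group consisted of 4 cultures of the same kind left untreated, and their sample titles give no culture time. All cultures were grown with 10% fetal bovine serum, and serum itself is known to carry both lipids. The series design describes the replicates as coming from different litters, and each culture is a plated, adherent fraction of whole-heart digests, not a sorted cell type.

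Sphingosine 1-phosphate (S1P) and lysophosphatidic acid (LPA) are small phospholipids that cells release and sense through G protein-coupled receptors. S1P is made inside the cell when a sphingosine kinase phosphorylates sphingosine, and the lyase breaks it down irreversibly. LPA is made mainly outside the cell, where autotaxin cleaves lysophosphatidylcholine. Both lipids act on fibroblasts through receptors coupled to G proteins, and both have been linked to fibrosis.

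Library totals ran from 14340740 to 17176898 gene counts. Of the 9 genes, 8 had enough counts to be tested among 13960 genes, and autotaxin did not. Over all tested genes 36.0% were called at an adjusted p under 0.05 (edgeR quasi-likelihood test, Benjamini-Hochberg adjustment), 17.6% higher and 18.5% lower in TGF-β1 cultures. With library totals in place of TMM scaling, this split was 1301 higher and 3673 lower, against 2451 higher and 2579 lower. Levels below are CPM, counts relative to the library total scaled with TMM factors, where groups are compared, and FPKM, the authors' value per gene length, where genes are compared. Fibroblast markers were abundant, with a summed level of 16143 to 17719 CPM in TGF-β1 and 12121 to 13603 CPM in untreated libraries, and none of the 8 was at 0. Of these, 2 were called higher in TGF-β1 cultures, the collagen genes Col1a1 and Col1a2, and 6 lower, with a median log2 fold change of -0.54. Most of the sum was these 2 collagen genes. Col1a1 stood at 9949 to 11317 CPM in TGF-β1 and 6637 to 7744 CPM in untreated libraries. Col1a2 stood at 4866 to 5178 CPM in TGF-β1 and 3595 to 3989 CPM in untreated libraries.

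Among the 8 tested genes, Sphk1 and Sgpl1 rose, S1pr2, S1pr3 and Lpar1 fell, and Sphk2, S1pr1 and Lpar4 were not called. The genes for enzymes that act inside the cell were thus higher or not called, and the receptor genes were lower or not called. With 5 of 8 called against 36.0% of all tested genes, the set is small, and its share is given only as a description. The median log2 fold change of the 8 was -0.20, against 0.01 over all tested genes. The same 2 genes were called higher and the same 3 lower in all 18 alternative analyses run, with Sphk2 added in 1 of them, which included other scalings, filters and tools and the omission of each library in turn.

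The stretches of DNA just upstream of 3 of the called genes are shown because the S1pr2 and S1pr3 genes fell in the same cultures in which the Sgpl1 gene rose. They are the genes with a call and a single start site in the RefSeq promoter table (build GRCm38.p6), which had entries for 7 of the 9 members. Each window holds the 250 bases before the start, 5′ to 3′ on the gene's strand, and capitals mark CAGAC or its complement GTCTG, the short DNA element that SMAD proteins can bind.
S1pr3, chr13:51408368-51408617, plus strand: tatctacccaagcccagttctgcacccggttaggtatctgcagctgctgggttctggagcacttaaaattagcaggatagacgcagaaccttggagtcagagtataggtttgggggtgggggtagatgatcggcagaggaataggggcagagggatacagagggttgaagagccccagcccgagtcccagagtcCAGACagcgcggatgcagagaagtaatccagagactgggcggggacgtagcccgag
S1pr2, chr9:20976794-20977043, minus strand: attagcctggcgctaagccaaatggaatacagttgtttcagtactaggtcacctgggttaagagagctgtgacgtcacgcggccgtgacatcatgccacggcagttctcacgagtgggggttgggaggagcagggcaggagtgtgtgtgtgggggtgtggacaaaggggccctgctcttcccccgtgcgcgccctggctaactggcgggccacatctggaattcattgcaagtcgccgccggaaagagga
Sgpl1, chr10:61147685-61147934, minus strand: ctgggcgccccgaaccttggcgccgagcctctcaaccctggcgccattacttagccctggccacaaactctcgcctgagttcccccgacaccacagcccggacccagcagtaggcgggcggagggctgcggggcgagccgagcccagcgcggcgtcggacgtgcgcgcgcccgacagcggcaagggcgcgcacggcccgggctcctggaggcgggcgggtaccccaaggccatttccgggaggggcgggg
The S1pr3 window holds 1 such match, which begins 56 bases before the start, and the S1pr2 and Sgpl1 windows hold none. Searched on both strands, CAGAC or GTCTG occurs in 42.2% of all 32851 windows of this length in the table, and in 4 of the 14 windows of the members. A further 3 motifs were searched on both strands and counted separately, whether or not matches overlapped. The Sp1 box GGGCGG (complement CCGCCC) occurs in 32.7% of all windows and 7 of the 14, with 3 matches in the Sgpl1 window, 1 in the S1pr3 window and 0 in the S1pr2 window. The TEAD element GGAATG (complement CATTCC) occurs in 12.6% of all windows and 1 of the 14, and TATAAA (complement TTTATA) in 12.4% and 2 of the 14, and neither is in the windows printed. GC content was 56.4% for S1pr3, 59.2% for S1pr2 and 74.8% for Sgpl1, against a median of 52.4%. Besides the S1pr3 window, CAGAC matches lay in windows of Sphk1, which rose, Lpar1, which fell, and Lpar4, which was not called. A match is a description of letters only, and binding was not measured.

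The kinase gene Sphk1 encodes the largely cytosolic sphingosine kinase (ENSMUSG00000061878, chromosome 11, 116421751 to 116427501, plus strand, GRCm39). It stood at 59.0, 63.9, 57.5 and 59.2 CPM in TGF-β1 replicates 1 to 4, against 49.2, 43.5, 47.2 and 45.9 CPM in untreated replicates 1 to 4. Every treated library lay above every untreated one. The means were 59.9 ± 2.80 CPM in TGF-β1 and 46.4 ± 2.39 CPM in untreated cultures (SD, n = 4 each), and the change was 0.37 ± 0.05 on the log2 scale (SE, edgeR adjusted p = 1.04e-05). Of all tested genes, 16.5% had every treated library above every untreated one and 17.4% had every treated library below.

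Sphk2 encodes the second kinase, which is found in the nucleus and at mitochondria as well as in the cytosol (ENSMUSG00000057342, chromosome 7, 45358891 to 45367426, minus strand). Its level was 23.6, 23.6, 22.9 and 23.2 CPM in TGF-β1 libraries, against 24.0, 25.3, 27.2 and 23.8 CPM in untreated ones. The treated libraries were all slightly lower, but the gap was small next to the untreated spread, and the change of -0.10 on the log2 scale was not called (95% interval -0.24 to 0.04, edgeR adjusted p = 0.270). With library totals it was called, at -0.18 (edgeR adjusted p = 0.0443), and without untreated replicate 3 it was -0.06 (edgeR adjusted p = 0.545). Reads of Sphk2 may be mixed with others, since in GENCODE M39 38.1% of its exon sequence lies opposite exons of Rpl18 and Dbp. That share is of 7449 exon bases, while the deposited gene length is 4159 bases. The share within the sequence that was counted is not known. The sources used here do not say whether counting used strand. Rpl18, a ribosomal protein gene, stood at 630 to 689 CPM in TGF-β1 and 568 to 625 CPM in untreated libraries, well above Sphk2. Dbp, a circadian transcription factor gene, stood at 29.6 to 35.6 CPM in TGF-β1 and 26.5 to 29.6 CPM in untreated libraries. Both were called higher, with log2 fold changes of 0.12 ± 0.04 for Rpl18 and 0.20 ± 0.07 for Dbp (SE, edgeR adjusted p = 0.0151 and 0.0264). Neither was called with library totals (edgeR adjusted p = 0.424 and 0.201), without untreated replicate 1 (0.0692 and 0.0706) or without TGF-β1 replicate 2 (0.0560 and 0.107). Dbp was also not called without untreated replicate 2 or with DESeq2 (adjusted p = 0.0804 and 0.0534). The part of both genes in the Sphk2 level and in the Sphk1 to Sphk2 ratio was not tested.

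The balance between the kinases shifted with treatment. The ratio of Sphk1 to Sphk2 in FPKM was 2.17 to 2.36 in TGF-β1 libraries and 1.5 to 1.79 in untreated libraries, with no overlap. The difference in log2 ratio was 0.47 (exact two-sided permutation test over 70 assignments, p = 0.0286, the smallest this design allows, adjusted p = 0.0476 over 5 gene pairs compared). Library scaling cancels in such a ratio. Sphk1 made up 69.1% ± 0.77 of the summed kinase FPKM in TGF-β1 cultures and 61.7% ± 2.00 in untreated cultures (SD, n = 4 each).

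The lyase gene Sgpl1 was the most abundant member (ENSMUSG00000020097, chromosome 10, 60934421 to 60983482, minus strand). It had 313, 303, 300.4 and 322 CPM in TGF-β1 libraries, against 248, 246, 250 and 254 CPM in untreated ones. All treated libraries were above all untreated ones. The means were 310 ± 10.0 CPM in TGF-β1 and 249 ± 3.39 CPM in untreated cultures (SD, n = 4 each), or 0.31 ± 0.04 on the log2 scale (SE, edgeR adjusted p = 3.26e-07). The genes for making S1P by Sphk1 and for removing it by the lyase were thus both higher, by 1.29-fold and 1.24-fold.

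**Figure D1:**
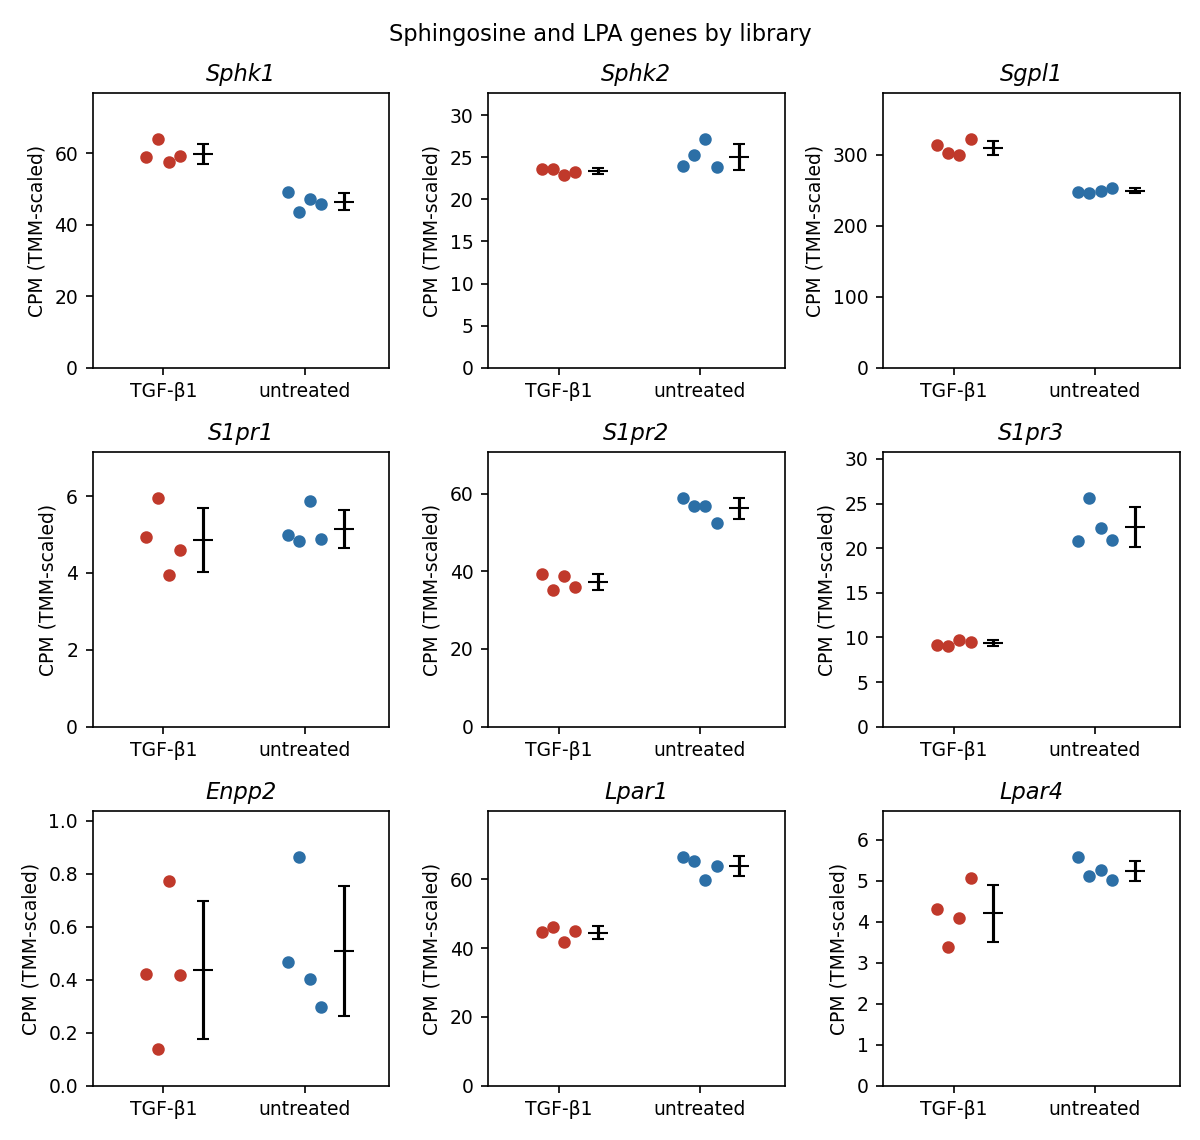
CPM of each of the 9 genes in TGF-β1 (left, red) and untreated (right, blue) libraries, with the mean and SD (n = 4 each) beside the points. Each panel has its own axis from 0. Sphk1 and Sgpl1 are higher and S1pr2, S1pr3 and Lpar1 lower in all treated libraries, while S1pr1, Lpar4 and Enpp2 overlap.

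Of the receptors for S1P, S1pr3 changed most. S1pr3 couples to several classes of G protein (ENSMUSG00000067586, chromosome 13, 51562675 to 51576833, plus strand), and its upstream window is the one printed with a CAGAC match. It stood at 9.10, 8.99, 9.71 and 9.48 CPM in TGF-β1 libraries, against 20.9, 25.6, 22.3 and 20.9 CPM in untreated libraries. The treated libraries lay close together, all below the lowest untreated value. The means of 9.32 ± 0.34 CPM in TGF-β1 and 22.4 ± 2.23 CPM in untreated cultures (SD, n = 4 each) gave a log2 fold change of -1.26 ± 0.09, a 2.40-fold lower level (SE, edgeR adjusted p = 1.94e-10). Of the 13960 tested genes, 444 had a more negative log2 fold change.

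S1pr2, an S1P receptor that also couples to several classes of G protein (ENSMUSG00000043895, chromosome 9, 20873657 to 20888077, minus strand), also fell. Its level was 39.2, 35.1, 38.9 and 35.9 CPM in TGF-β1 libraries, against 58.8, 56.8, 56.7 and 52.5 CPM in untreated ones. The groups did not overlap. The means were 37.3 ± 2.08 CPM in TGF-β1 and 56.2 ± 2.67 CPM in untreated cultures (SD, n = 4 each), which is -0.59 ± 0.06 on the log2 scale (SE, edgeR adjusted p = 1.95e-08).

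S1pr1, which signals through inhibitory G proteins and is best known from endothelium and lymphocytes, was low (ENSMUSG00000045092, chromosome 3, 115504082 to 115508721, minus strand). It had 4.94, 5.95, 3.94 and 4.59 CPM in TGF-β1 libraries, against 4.98, 4.84, 5.86 and 4.89 CPM in untreated libraries, and the groups overlapped. These rest on 56 to 86 reads per TGF-β1 library and 73 to 87 per untreated library. The log2 fold change was -0.08 with a 95% interval of -0.41 to 0.24 (edgeR adjusted p = 0.724), so a fall as large as that of S1pr3 lies outside the interval and a small change in either direction lies inside it. Endothelial markers, which could accompany S1pr1, summed to 77.5 to 85.7 CPM in TGF-β1 and 83.0 to 83.9 CPM in untreated libraries, with 2 of 9 higher and 2 lower, none at 0, and their part in the S1pr1 level was not tested.

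The balance among the 3 receptors changed with treatment. The S1pr2 to S1pr3 ratio in FPKM was 2.12 to 2.41 in TGF-β1 libraries and 1.24 to 1.58 in untreated libraries, and the S1pr1 to S1pr3 ratio was 0.595 to 0.969 in TGF-β1 libraries and 0.277 to 0.385 in untreated libraries. Neither pair of ranges overlapped, and the log2 ratios differed by 0.67 and 1.17 (exact two-sided permutation tests, p = 0.0286 each, the smallest possible, adjusted p = 0.0476 over 5 pairs). For S1pr1 over S1pr2 the difference of 0.50 did not pass (exact permutation p = 0.0571, adjusted p = 0.0714). Summed over the 3 genes, S1P receptor transcripts amounted to 7.99 to 8.45 FPKM in TGF-β1 and 12.7 to 14.2 FPKM in untreated libraries. S1pr3 made up 25.0% ± 1.26 of this sum in TGF-β1 cultures and 36.4% ± 2.35 in untreated cultures, and S1pr2 was the largest part in both, at 55.9% ± 2.56 in TGF-β1 and 51.3% ± 1.93 in untreated cultures (SD, n = 4 each).

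**Figure D2:**
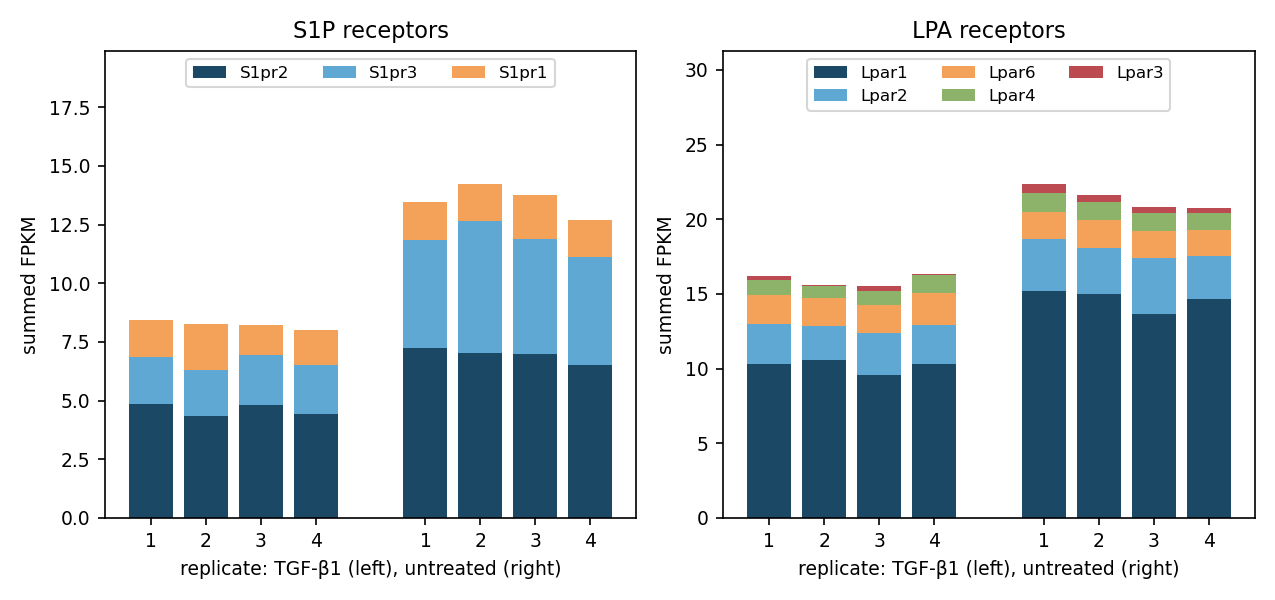
Summed FPKM of S1P receptor genes (left panel) and LPA receptor genes (right panel) in each library, with TGF-β1 replicates 1 to 4 at the left of a panel and untreated replicates 1 to 4 at its right. Colours are genes. The S1P receptor sums are 7.99 to 8.45 in TGF-β1 and 12.7 to 14.2 in untreated libraries, and Lpar1 is the main part of the LPA receptor sums.

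Lpar1 is the LPA receptor best known from fibroblasts and couples to several classes of G protein (ENSMUSG00000038668, chromosome 4, 58435255 to 58553898, minus strand). It had 44.8, 46.0, 41.7 and 45.1 CPM in TGF-β1 libraries, against 66.4, 65.3, 59.8 and 63.8 CPM in untreated libraries. The groups did not overlap. The means were 44.4 ± 1.90 CPM in TGF-β1 and 63.8 ± 2.87 CPM in untreated cultures (SD, n = 4 each), and on the log2 scale the change was -0.52 ± 0.05 (SE, edgeR adjusted p = 4.24e-08).

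Lpar4 belongs to a separate receptor family, related to purinergic receptors (ENSMUSG00000049929, chromosome X, 105964231 to 105977506, plus strand). It stood at 4.30, 3.39, 4.08 and 5.07 CPM in TGF-β1 libraries, against 5.58, 5.11, 5.26 and 5.01 CPM in untreated libraries. Treated replicate 4 reached the untreated range, and the others lay below it. The log2 fold change of -0.31 was not called (95% interval -0.63 to 0.02, edgeR adjusted p = 0.132), on 49 to 85 reads per TGF-β1 library and 77 to 84 per untreated library. The interval includes the change seen for Lpar1. The Lpar1 to Lpar4 ratio was 8.79 to 13.4 in TGF-β1 and 11.2 to 12.6 in untreated libraries, with no difference called (log2 difference -0.20, exact permutation p = 0.2, adjusted p = 0.2). The difference was -0.31 without TGF-β1 replicate 2 and -0.11 without TGF-β1 replicate 4.

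Autotaxin, the main extracellular source of LPA, was detected at a few reads per library (Enpp2, ENSMUSG00000022425, chromosome 15, 54702297 to 54816288, minus strand). It had 6, 2, 11 and 7 reads in TGF-β1 libraries, against 7, 13, 6 and 5 reads in untreated libraries. The ranges overlapped. It did not pass the count filter, and at this depth no difference was detectable. Its level was 0.07 ± 0.04 FPKM in TGF-β1 and 0.09 ± 0.04 FPKM in untreated cultures (SD, n = 4 each).

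**Figure D3:**
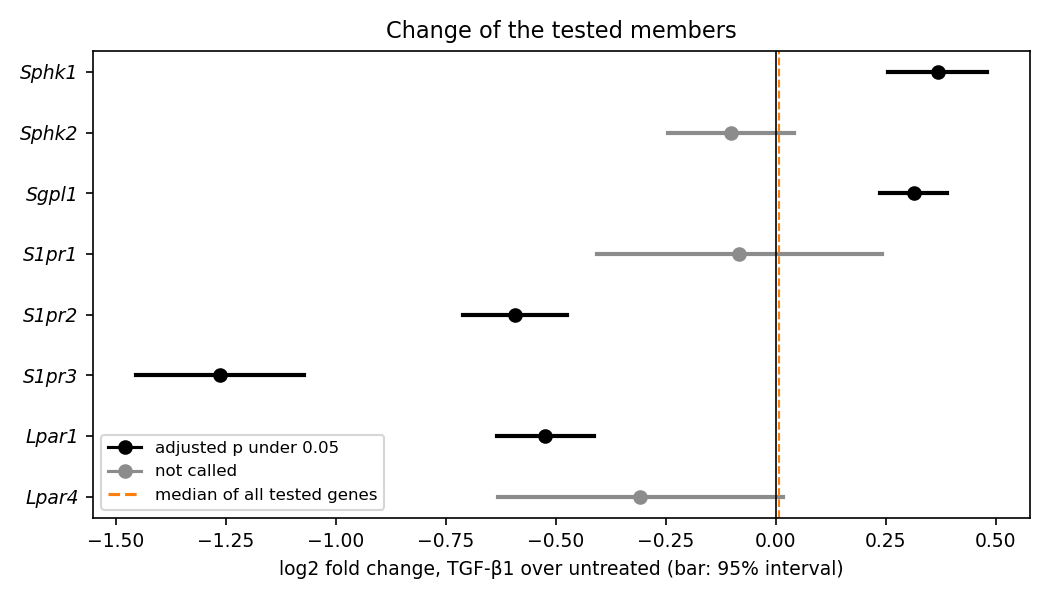
Log2 fold change of the 8 tested genes, TGF-β1 over untreated, with 95% intervals (n = 4 each). Black marks genes called at an adjusted p under 0.05, grey marks genes not called, and the dashed line is the median of all tested genes at 0.01. S1pr3 has the lowest value at -1.26 and Sphk1 the highest at 0.37.

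Per gene length the levels ran in nearly the same order in both groups, with changes at neighbouring places. In TGF-β1 cultures the order was Sgpl1 (49.6 ± 1.57 FPKM), Sphk1 (12.3 ± 0.59), Lpar1 (10.2 ± 0.44), Sphk2 (5.52 ± 0.09), S1pr2 (4.60 ± 0.26), S1pr3 (2.05 ± 0.07), S1pr1 (1.57 ± 0.27), Lpar4 (0.98 ± 0.16) and Enpp2 (SD, n = 4). In untreated cultures it was Sgpl1 (39.9 ± 0.60 FPKM), Lpar1 (14.6 ± 0.68), Sphk1 (9.57 ± 0.49), S1pr2 (6.94 ± 0.32), Sphk2 (5.92 ± 0.35), S1pr3 (4.94 ± 0.49), S1pr1 (1.66 ± 0.15), Lpar4 (1.22 ± 0.06) and Enpp2 (SD, n = 4). In neither group did the library ranges of any 2 neighbours overlap. Lpar1 stood below Sphk1 in all treated libraries and above it in all untreated ones, and S1pr2 stood below Sphk2 in all treated libraries and above it in all untreated ones. The Sphk2 level carries the overlap with Rpl18 and Dbp given above.

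**Figure D4:**
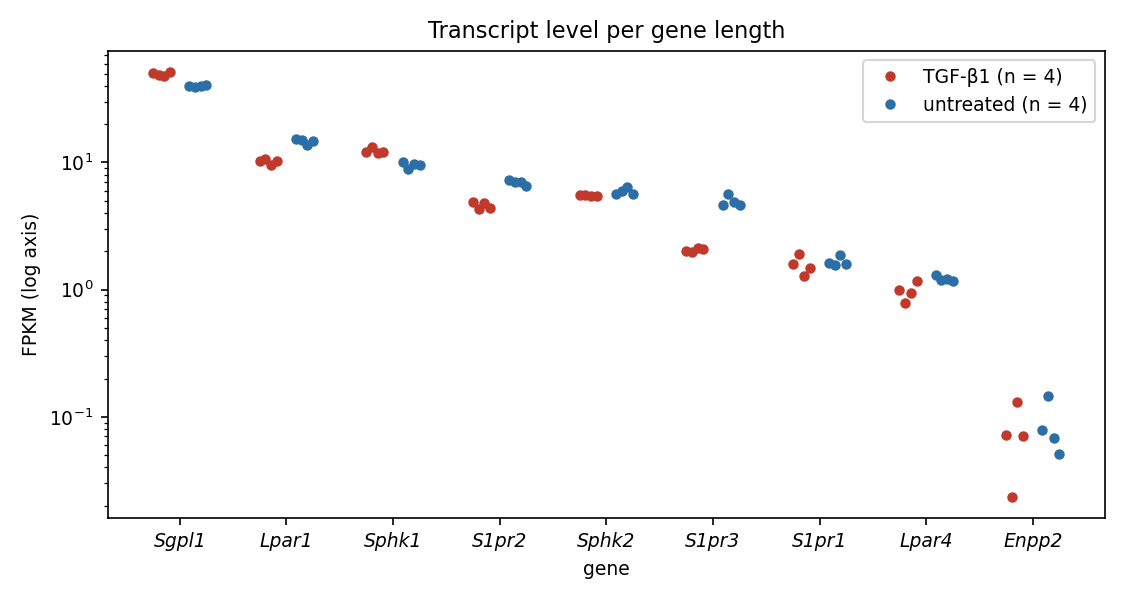
FPKM of the 9 genes on a log axis, 1 point per library, TGF-β1 in red at the left of each pair and untreated in blue at the right, ordered by the untreated mean. Sgpl1 lies at 39.4 to 51.5 FPKM and Enpp2 at 0.02 to 0.15 FPKM, and Lpar1 and Sphk1 change places between groups.

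Other genes of the same pathways were counted from lists by function. Over 4 lists, 45 of 59 genes were tested, and 15 were called higher and 12 lower, 60.0% against 36.0% of all tested genes, with a median log2 fold change of 0.04. With library totals, 4 were called higher and 16 lower. The lists were chosen with earlier results of these data known, so the 60.0% is given only as a description.

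Genes that supply, export or dephosphorylate S1P and LPA included Spns2 and Plpp3, the 2 with the lowest log2 fold changes of the 45. In this list 4 of 9 tested genes fell and 1 rose, with a median of -0.17. Spns2, the transporter that releases S1P from cells, had 11.5, 9.82, 11.2 and 10.5 CPM in TGF-β1 libraries, against 32.3, 36.3, 33.3 and 34.8 CPM in untreated libraries. Every treated library was below every untreated one, and the log2 fold change was -1.67 ± 0.08, a 3.18-fold lower level (SE, edgeR adjusted p = 9.52e-14). Plpp3 and Plpp1, cell surface phosphatases that degrade both LPA and S1P, changed by -1.32 ± 0.06 and -0.94 ± 0.06 (edgeR adjusted p = 2.40e-14 and 5.98e-12). Plpp3 averaged 26.6 ± 0.67 CPM in TGF-β1 and 66.3 ± 3.42 CPM in untreated cultures (SD, n = 4 each). The acid ceramidase gene Asah1, whose product frees sphingosine from ceramide, rose by 0.26 ± 0.04 (edgeR adjusted p = 3.51e-06), and the S1P phosphatase gene Sgpp1 was the remaining gene that fell. Of the others Acer1, Sgpp2, Mfsd2b and Apom did not pass the count filter.

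In the list of ceramide supply 9 of 21 tested genes rose and 5 fell. The list also holds genes whose products use ceramide or restrain its synthesis, so these counts give no direction for supply. The 9 rises were of 0.11 to 0.18 on the log2 scale, and the count was 4 to 6 when any 1 library was left out, 5 with limma on log2(FPKM + 1) and 0 with library totals. Smpd3, a neutral sphingomyelinase, fell by 1.00 ± 0.05, with 79.2 ± 5.58 CPM in TGF-β1 and 158 ± 3.02 CPM in untreated cultures (SD, n = 4 each, edgeR adjusted p = 1.04e-13). The ceramide kinase gene Cerk changed by -0.43 ± 0.07. Sptlc2, a subunit of the enzyme that starts sphingolipid synthesis, changed by -0.22 ± 0.04, and Ormdl3, a regulator that restrains that enzyme, by -0.27 ± 0.05.

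In the list of LPA supply and conversion, 5 of 12 tested genes rose and 1 fell, with 3 rising and 2 falling under library totals. Gdpd1, a lysophospholipase D that can form LPA, rose by 0.73 ± 0.12, and Gpat3, which makes LPA from glycerol phosphate, rose by 0.71 ± 0.11. Both were low, Gdpd1 at 10.8 ± 0.95 CPM in TGF-β1 and 6.54 ± 0.58 CPM in untreated cultures, and Gpat3 at 11.9 ± 0.88 CPM in TGF-β1 and 7.27 ± 0.53 CPM in untreated cultures (SD, n = 4 each). The acyltransferase genes Agpat4 and Agpat3, on the conversion side of this list, rose by 0.39 ± 0.06 and 0.16 ± 0.04. Agpat3 was not called with library totals (edgeR adjusted p = 0.155). Gpam was the 1 that fell, at -0.20 ± 0.05 (edgeR adjusted p = 0.00765). It stood at 41.9 to 46.8 CPM in TGF-β1 and 49.5 to 54.8 CPM in untreated libraries. Gpat4, at 113 to 122 CPM in TGF-β1 and 106 to 112 CPM in untreated libraries, was not called (edgeR adjusted p = 0.0580).

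Among the other receptors for both lipids, S1pr4, S1pr5 and Lpar5 did not pass the filter, and 2 of the 3 tested fell. Lpar2 fell by 0.33 ± 0.09 (edgeR adjusted p = 0.00586), with 16.8 ± 1.44 CPM in TGF-β1 and 21.1 ± 2.28 CPM in untreated cultures (SD, n = 4 each). Lpar3 changed by -1.07 ± 0.40 on 4 to 12 reads per TGF-β1 library and 14 to 22 per untreated library (edgeR adjusted p = 0.0414). That call was lost with no count filter, with DESeq2 (adjusted p = 0.0575 and 0.103) and when untreated replicate 1, 2 or 3 or TGF-β1 replicate 2 or 4 was left out (edgeR adjusted p = 0.122, 0.0758, 0.0593, 0.125 and 0.147). Summed over Lpar1, Lpar2, Lpar3, Lpar4 and Lpar6, LPA receptor transcripts amounted to 15.5 to 16.3 FPKM in TGF-β1 and 20.8 to 22.3 FPKM in untreated libraries. Lpar1 made up 63.9% ± 2.65 of this sum in TGF-β1 cultures and 68.5% ± 2.13 in untreated cultures (SD, n = 4 each).

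**Figure D5:**
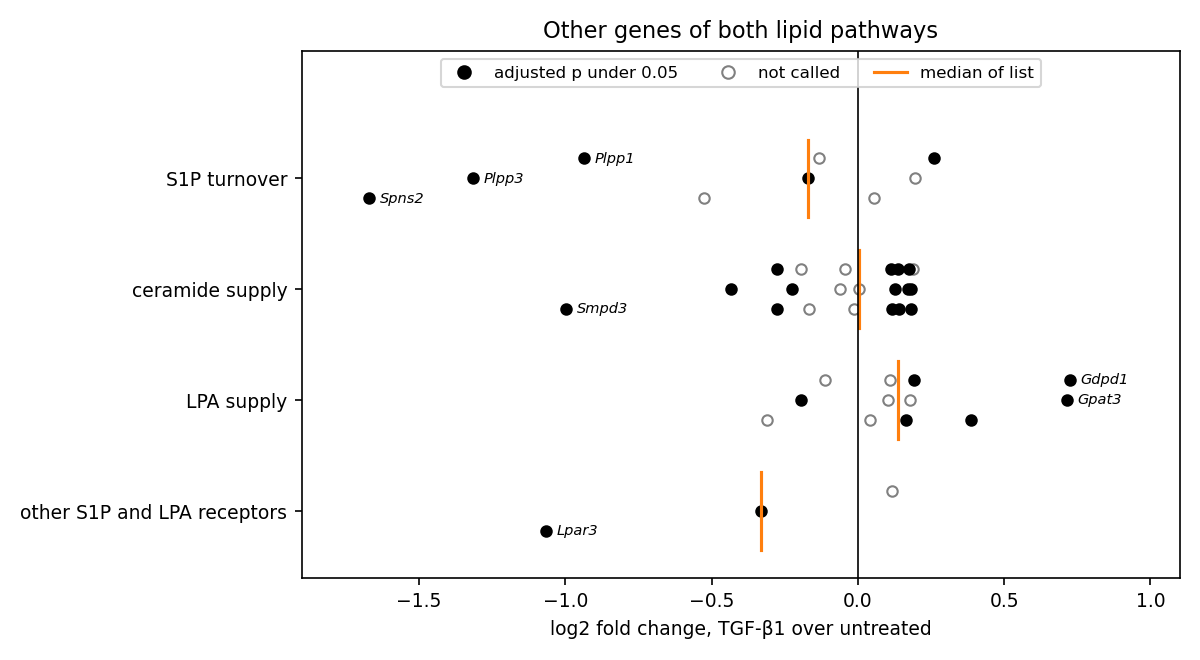
Log2 fold change, TGF-β1 over untreated, of each tested gene in 4 lists of the S1P and LPA pathways. Filled points were called at an adjusted p under 0.05, open points were not, and orange lines are list medians. Spns2, Plpp3 and Lpar3 lie lowest, at -1.67, -1.32 and -1.07.

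The genes most like Sphk1 and S1pr3 over the 8 libraries were sought by the root mean square difference of log2 CPM after centring each gene on its mean. For Sphk1 they were Pxdc1 (0.02), Stbd1 (0.04) and P4ha3 (0.04), and P4ha3 encodes a subunit of collagen prolyl hydroxylase. For S1pr3 they were Capn6 (0.05), Serping1 (0.07) and Plk4 (0.07), which encode a calpain family protein, a complement inhibitor and a centriole kinase. These genes carried log2 fold changes of 0.33 to 0.38 and of -1.33 to -1.20. They were chosen by likeness over the same libraries, so values near those of Sphk1 and S1pr3 follow from the choice.

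Markers of other cells moved in the same libraries. In bulk RNA, fewer cells of a type and less RNA per cell cannot be told apart. Cardiomyocyte markers summed to 404 to 482 CPM in TGF-β1 and 739 to 808 CPM in untreated libraries, with 9 of 10 lower. Mural cell markers are of interest because vascular smooth muscle is known to express S1pr2 and S1pr3. The mural markers summed to 429 to 488 CPM in TGF-β1 and 272 to 281 CPM in untreated libraries. Most of that sum was Mcam, at 345.2 to 391.8 CPM in TGF-β1 and 206.9 to 210.9 CPM in untreated libraries. Of 5 tested, 3 were higher (Mcam, Cspg4 and Rgs5) and 1 lower, while Kcnj8, Abcc9 and Higd1b were too low to test. Notch3 was the 1 lower, with a log2 fold change of -0.57. Myh11 was not called, at 2.21 to 3.24 CPM in TGF-β1 and 2.15 to 3.19 CPM in untreated libraries (edgeR adjusted p = 0.828). Higd1b had 3 reads in untreated replicate 2 and 0 in every other library of both groups. Epicardial and mesothelial markers summed to 717 to 739 CPM in TGF-β1 and 867 to 918 CPM in untreated libraries. Of the 6, Upk3b and Krt19 were lower and the others were not called. Upk3b stood at 146 to 176 CPM in TGF-β1 and 289 to 315 CPM in untreated libraries. Msln stood at 226 to 235 CPM in TGF-β1 and 220 to 229 CPM in untreated libraries. Upk1b stood at 267 to 283 CPM in TGF-β1 and 271 to 300 CPM in untreated libraries. Macrophage markers summed to 162 to 195 CPM in TGF-β1 and 179 to 218 CPM in untreated libraries, with 1 of 6 tested higher and 1 lower. Most of that sum was Lyz2, the 1 lower, at 138 to 163 CPM in TGF-β1 and 155 to 185 CPM in untreated libraries. Schwann cell markers summed to 1.24 to 1.90 CPM in TGF-β1 and 1.35 to 2.32 CPM in untreated libraries. The part of all these markers in the levels of the 9 genes was not tested. Untreated replicate 1 held 0.0332% of its counts on ribosomal RNA, against 1.09% to 2.56% in TGF-β1 libraries and 2.13% to 2.49% in the other untreated libraries. Without that library the log2 fold change of S1pr3 was -1.30 and that of Sphk1 was 0.39.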

How the data were processed

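Polyadenylated RNA was sequenced from 4 TGF-β1 and 4 untreated cultures. Per the submitters' processing notes, the tools included HISAT2, featureCounts, Subread and CASAVA, with no versions. The deposited read counts per gene are whole numbers, not normalized. The FPKM values are the authors' own, and the deposited table equals the count per gene length times 1 constant per library. File coordinates were read as GRCm39, because all 9 members overlap their GENCODE M39 gene and 1 overlaps its GRCm38 gene.

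Counts were filtered with filterByExpr (minimum count 10, minimum total 15), scaled with TMM factors and tested with edgeR 4.0.16 (limma 3.58.1, R 4.3.3, quasi-likelihood test, group only, two-sided, Benjamini-Hochberg over 13960 genes, called at adjusted p under 0.05). Biological variation amounted to a coefficient of 6.27%. Standard errors divide the log2 fold change by the root of the F statistic, and 95% intervals use the model's t distribution. Ratios of FPKM were tested by exact permutation. Genes named by rule were the 9 members and up to 4 called genes with the smallest p of each list. To these were added the 3 genes with mean CPM of at least 5 most like the most raised and the most lowered member. Numbered or predicted gene symbols were skipped in that search. Others, such as Sgpp1, Gpam, Gpat4, Rpl18, Dbp and cell type markers, were named outside this rule. Members and lists were chosen with earlier results of these data known. A further list of signalling genes is not reported here. Replicates of a group differed by 2.14 to 3.33 times the sampling noise (median chi-square per gene over its expectation), so none was treated as a duplicate.

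Alternatives were no count filter, a filter of CPM at least 1 in 4 libraries, scaling by RLE, upper quartile or library totals, DESeq2 1.42.0, limma for log2(FPKM + 1) and log2(FPKM + 0.1), a replicate block, omission of ribosomal RNA genes and Lars2, and omission of each library.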

Additional observations from a re-analysis of the deposited data

Results flagged for a closer look

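The level of S1pr1 in untreated replicate 3, at 5.86 CPM, lay apart from the other untreated libraries at 4.84 to 4.98 CPM by more than Dixon's 95% critical value for 4 samples. It was the only library set apart in 18 groups of 4 checked, and chance sets apart about 1 in 20 groups. Without that library the S1pr1 log2 fold change was -0.02 (edgeR adjusted p = 0.949).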

How the results depend on the processing

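The calls of Sphk1, Sgpl1, S1pr2, S1pr3 and Lpar1 held in all 18 alternatives, with log2 fold changes of 0.29 to 0.39, 0.23 to 0.33, -0.67 to -0.50, -1.34 to -0.96 and -0.60 to -0.48. Sphk2 was called only with library totals (-0.18, edgeR adjusted p = 0.0443), where the number of pathway genes called higher was 4 instead of 15. S1pr1 ranged from -0.19 to 0.0029 when a library was left out, with the sign turned without TGF-β1 replicate 3 (edgeR adjusted p = 0.992). Same-numbered libraries are not stated to share a litter, and their deviations correlated at -0.18 to 0.10, so the number is not taken as pairing. With the replicate block 2416 genes were called higher and 2555 lower, and no member changed its call. For the FPKM ratios, the block by sign flips left the differences of Sphk1 over Sphk2, S1pr1 over S1pr3 and S1pr2 over S1pr3 at 0.47, 1.17 and 0.67, with an adjusted p of 0.208 each in exact tests that cannot go below p = 0.125. Leaving out a library gave 0.43 to 0.52, 1.05 to 1.28 and 0.61 to 0.72, where the exact test cannot go below p = 0.0571. With a pseudocount of 1, the differences of S1pr1 over S1pr2 and Lpar1 over Lpar4 were 0.45 and -0.32 (exact permutation, adjusted p = 0.0286 each). S1pr1 and Lpar4 lay close to that pseudocount. They averaged 1.57 and 0.98 FPKM in TGF-β1 and 1.66 and 1.22 FPKM in untreated cultures. The cause of the altered calls was not tested. Depth limits S1pr1, Lpar4 and Lpar3, and Enpp2 had a log2 fold change of -0.20 without a count filter (edgeR adjusted p = 0.847).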
